A study of Mus musculus with 69 samples.

Results

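The 48 genes described here encode the machinery of DNA replication and of mitosis. They were chosen as a list of gene symbols, with no measured value in the rule, and all 48 were found among the 56980 genes of the tables. All 48 also passed the filter on low counts, which 12008 genes passed, and each was tested in every comparison. Kif18b passed it through its levels of day 4 alone. By role, 21 act in G1/S and S phase (the MCM helicase and its loading factors, nucleotide supply, the G1/S cyclins with E2f1, and chromatin factors of the replication fork) and 27 act in G2 and mitosis (mitotic cyclins and kinases, kinesins, kinetochore proteins, the anaphase-promoting complex and the markers Mki67 and Top2a).

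The levels come from macrophages grown from the bone marrow of wild-type mice. Marrow of 6 mice was pooled for each biological replicate, grown in 50 ng/mL M-CSF, harvested on day 7, frozen, and later thawed and plated in M-CSF at the same dose. Complexes of Cas9 and a guide RNA were aimed at Trem2 (a lipid-sensing receptor), Grn (progranulin), Ctsd (a lysosomal protease), Pik3c3 (a kinase that makes the lipid PI3P on endosomes), Npc1 (which moves cholesterol out of lysosomes) or Atp6v1a (a subunit of the proton pump that acidifies them), and, as the control, at the Rosa26 locus. RNA was taken at day 4 or day 13 after editing; the sample labels write these numbers as hours and the series design as days. The 69 libraries form 14 groups, 1 per target and day. Npc1 at day 4 has 4 libraries (n = 4, replicates 2 to 5) and every other group has 5. All groups, Rosa26 included, received a Cas9 complex, and the labels describe no selection or cloning of edited cells.

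A dividing cell copies its genome in S phase and separates the copies in mitosis. Cyclin D with its kinases releases E2F factors from RB-family proteins in G1, and E2F then raises the replication genes; the mitotic genes are transcribed later, through a promoter element called CHR that is read by complexes with MYB and FOXM1 and silenced by the DREAM complex in resting cells. M-CSF is the growth factor that drives marrow macrophages through the cycle, and cyclin D1 is a known early target of its receptor. Macrophages in long culture tend to leave the cycle, and CDK inhibitors hold cells in G1.

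Promoters of 5 members are shown because the phases of the list differ in the letters their promoters hold. Promoter sequences, 250 bases before to 50 bases after the start, came from RefSeq on GRCm38.p6, another build than the GRCm39 of the counts, and 39 of the 48 members had one. Both strands were searched for E2F letters (TTTCCCGC, TTTCGCGC, TTTGCCGC or TTTGGCGC), CHR letters (TTTGAA or TTCGAA) and the CCAAT box, and all matches are in capitals, in the orientation in which they lie on the printed strand. Mcm5 is shown for replication, Rrm2 for nucleotide supply, Cdk1 for the mitotic kinase, and Top2a and Mki67 for the proliferation markers.
Mcm5 (ENSMUSG00000005410.7, chr8:75109259-75109558, plus strand): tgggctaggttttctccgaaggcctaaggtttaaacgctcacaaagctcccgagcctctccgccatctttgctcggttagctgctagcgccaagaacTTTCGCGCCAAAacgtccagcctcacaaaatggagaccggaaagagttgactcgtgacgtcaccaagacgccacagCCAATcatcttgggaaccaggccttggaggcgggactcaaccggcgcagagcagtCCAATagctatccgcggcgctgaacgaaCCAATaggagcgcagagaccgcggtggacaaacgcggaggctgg
Rrm2 (ENSMUSG00000020649.12, chr12:24708004-24708303, plus strand): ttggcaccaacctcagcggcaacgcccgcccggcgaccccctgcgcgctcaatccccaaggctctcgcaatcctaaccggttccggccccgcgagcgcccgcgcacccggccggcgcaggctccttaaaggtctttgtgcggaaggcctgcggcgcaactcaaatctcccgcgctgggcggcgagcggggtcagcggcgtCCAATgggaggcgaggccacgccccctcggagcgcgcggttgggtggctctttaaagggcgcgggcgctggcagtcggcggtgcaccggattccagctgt
Cdk1 (ENSMUSG00000019942.14, chr10:69352863-69353162, minus strand): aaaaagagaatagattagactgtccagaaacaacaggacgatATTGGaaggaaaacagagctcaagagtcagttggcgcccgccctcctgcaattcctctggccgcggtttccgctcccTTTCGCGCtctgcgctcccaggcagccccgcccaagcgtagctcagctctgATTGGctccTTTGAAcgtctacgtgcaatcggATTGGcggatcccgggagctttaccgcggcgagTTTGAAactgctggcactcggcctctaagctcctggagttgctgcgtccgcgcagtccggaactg
Top2a (ENSMUSG00000020914.18, chr11:99024140-99024439, minus strand): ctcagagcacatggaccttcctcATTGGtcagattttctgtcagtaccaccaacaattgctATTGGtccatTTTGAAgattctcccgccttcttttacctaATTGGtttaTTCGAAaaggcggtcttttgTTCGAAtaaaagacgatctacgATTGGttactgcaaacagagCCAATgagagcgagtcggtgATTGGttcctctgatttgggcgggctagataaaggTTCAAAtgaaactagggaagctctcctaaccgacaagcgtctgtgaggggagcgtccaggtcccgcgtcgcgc
Mki67 (ENSMUSG00000031004.9, chr7:135716330-135716629, minus strand): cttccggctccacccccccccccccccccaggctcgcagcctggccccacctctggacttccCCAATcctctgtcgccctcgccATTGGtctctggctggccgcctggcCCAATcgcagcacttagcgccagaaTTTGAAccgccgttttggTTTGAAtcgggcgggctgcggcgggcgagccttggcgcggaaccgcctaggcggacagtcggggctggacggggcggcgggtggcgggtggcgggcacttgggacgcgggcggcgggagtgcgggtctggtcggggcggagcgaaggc
The Mcm5 promoter held 2 E2F matches, which overlap each other, and none of the CHR letters. Rrm2 held 1 CCAAT box and neither of the other motifs. Cdk1 held 1 E2F match and 2 CHR matches, Top2a held 4 CHR matches, and Mki67 held 2. Over the list, E2F letters stood in 7 of 17 promoters of G1/S and S-phase members (41.2%) and in 1 of 22 of G2/M members (4.55%), against 2.26% of the 32851 promoters in the table. CHR letters stood in 3 of 17 (17.6%) and 17 of 22 (77.3%), against 19.2%. The CCAAT box stood in 10 of 17 (58.8%) and 18 of 22 (81.8%), against 37.4%. The CCAAT letters can overlap the other motifs, and a match describes the letters only.

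Library totals ran from 2194525 to 4688241 counts (median 3404701), and the spread between same-group libraries exceeded sampling noise in all 136 pairs. The targeted message was lower than in Rosa26 cells in 12 of 12 groups, by log2 changes from -0.44 (Atp6v1a, day 13) to -2.54 (Grn, day 13); 3' tags can survive an edit upstream of them, so this checks the labels and does not measure protein. RNA integrity numbers were 8.6 to 10 and were missing for 4 libraries. All 10 macrophage markers were above 0 in every group, with sums of 7910 to 24732 CPM (counts scaled to the library total). The labels name a Regular protocol for 47 libraries and a Low-input protocol for 22. At day 4 the Low-input library was Trem2 replicate 1; at day 13 the Low-input libraries were all 5 of Trem2, 4 of Pik3c3 (all but replicate 2), Atp6v1a replicates 1 to 3, Npc1 replicates 2, 3 and 5, Ctsd replicates 1, 3 and 4, Grn replicates 3 and 4, and Rosa26 replicate 5. In the fit, 18 members were higher and 19 lower in Low-input than in Regular libraries, with 34.9% and 32.1% of all tested genes called in those directions. The centromere motor Cenpe was the lowest there at -2.06 on the log2 scale, Ccnd1 stood at -1.19 and Rrm2 was the highest at 0.69. Fold changes below have this protocol term removed, while levels in CPM keep it. Among the 8 stromal markers, of which 3 were tested, the summed level in Rosa26 cells of day 13 was 22.0, 89.5, 23.7, 34.6 and 305.6 CPM in replicates 1 to 5, against 4.49 to 14.4 CPM at day 4, and all 8 were above 0 in both. The sum of 20 brain markers was 124 to 171 CPM in Rosa26 cells of day 4 and 122 to 431 CPM at day 13, with all 20 above 0 in both. At day 13 the 122 CPM was that of the Low-input library, against 272 to 431 CPM in the Regular ones, so protocol and brain markers went together there. Of 10 neutrophil and progenitor markers 2 passed the filter, both lower in Rosa26 cells at day 13 than at day 4, and no lymphocyte, mast cell or dendritic cell marker passed it. The part of erythroid, neutrophil and macrophage markers in the results was not tested; for stromal and brain markers, counts without the highest Rosa26 libraries or with a covariate stand beside the results. Pseudogene copies of Pcna, Tyms, Ccnb1 and Ccnb2 are in the tables, and none exceeded 4 CPM in any library; the copy of Tyms reached 12.5% of Tyms, so low Tyms values are less certain.

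Between day 4 and day 13, most cell cycle members fell in control macrophages. Their summed level was 4622 ± 318 CPM at day 4 and 2340 ± 208 CPM at day 13 (SD, n = 5 each). Of the 48 members, 46 fell, 1 rose (Ccnd1) and 1 (Pcna) was not called, at an adjusted p under 0.05 from edgeR's quasi-likelihood test; of all genes tested, 15.6% fell and 15.0% rose (30.6% in either direction). The median change of the members was -2.09 on the log2 scale, against 0.00 over all genes tested. All 27 G2/M members fell, with a median of -2.41, and 19 of the 21 G1/S and S-phase members fell, with a median of -1.37. The summed level of the G2/M members was 2484 ± 242 CPM at day 4 and 442 ± 27.5 CPM at day 13, and that of the G1/S and S-phase members was 2138 ± 96.4 and 1898 ± 180.4 CPM. The latter sum includes Ccnd1 and Pcna, the members that did not fall. In bulk RNA, fewer cycling cells and less message per cycling cell cannot be told apart.

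Among the replication genes, Mcm5 (a helicase subunit) stood at 75.1, 103, 99.9, 97.3 and 94.1 CPM in the libraries of day 4 and at 21.6, 30.7, 27, 29.6 and 31.9 CPM at day 13. The groups did not overlap, and the change was -1.83 ± 0.14 (adjusted p = 2.6e-18). Rrm2, the regulated subunit of ribonucleotide reductase, went from 54.6, 70.1, 70.8, 61.1 and 60.6 CPM to 13.8, 14.3, 16, 16.4 and 27.2 CPM (-2.02 ± 0.14, adjusted p = 2.9e-19). Its highest library of day 13 was replicate 5, the Low-input one, and still lay below all of day 4. All 10 licensing and helicase members fell, from -0.80 ± 0.20 for Cdc6 to -1.83 ± 0.14 for Mcm5. Of nucleotide supply, Tk1 (thymidine kinase) had the largest change, -2.96 ± 0.14 (adjusted p = 9.6e-28). Pcna, the sliding clamp of replication and repair, stood at 532, 412, 448, 394 and 419 CPM and then at 505, 378, 391, 338 and 622 CPM. Its groups overlapped over most of their range and the change was -0.09 ± 0.14 (adjusted p = 0.655).

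The G1/S regulators divided. Ccnd1 (cyclin D1) stood at 567, 642, 664, 562 and 573 CPM at day 4 and at 906, 1319, 1145, 1258 and 601 CPM at day 13. The first 4 libraries of day 13 are Regular and lie above all of day 4, while replicate 5 is Low-input and lies within the range of day 4. The change was 1.01 ± 0.14 (adjusted p = 5.4e-08). E2f1 (the activating E2F factor) fell by less than most members, from 40.8, 66.1, 59.8, 66.2 and 57.6 to 29.1, 25.1, 32.3, 31 and 39.7 CPM (-0.89 ± 0.13, adjusted p = 6.4e-08). Ccne1 (cyclin E1) went from 8.8, 8.03, 8.46, 10.8 and 7.49 to 1.86, 5.29, 4, 4.56 and 3.14 CPM (-1.26 ± 0.26, adjusted p = 8.7e-05). Neither gene's groups overlapped. Uhrf1 and Hells, which maintain DNA methylation and chromatin behind the fork, changed by -2.30 ± 0.18 and -1.05 ± 0.21.

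The mitotic genes fell in every role group. Cdk1 (the mitotic kinase) stood at 127, 156, 149, 137 and 144 CPM at day 4 and at 38.8, 36, 36, 31.9 and 54.9 CPM at day 13 (-1.91 ± 0.10, adjusted p = 1e-25). Ccnb1 (cyclin B1) went from 61.9, 86.7, 84.1, 82 and 83.4 to 13.1, 17.7, 10.0, 13.7 and 14.1 CPM (-2.53 ± 0.13, adjusted p = 1e-25). In both genes the lowest library of day 4 lay above the highest of day 13. Among the kinases and mitotic cyclins the largest changes were those of Plk1 (-3.26 ± 0.19), Ccna2 (-2.95 ± 0.13) and Ccnb1. Among kinesins and spindle proteins they were those of Kif18b (-3.49 ± 0.44), Ska1 (-3.29 ± 0.25) and Kif14 (-3.22 ± 0.22). Kif18b rested on few reads, with 0, 2, 4, 0 and 3 counts in the Rosa26 libraries of day 13. No library of day 13 in any group held more than 8 counts of it. It thus passed the filter on low counts only through its levels of day 4, so its fall is not independent of the filter. At the kinetochore and centromere, Birc5 (survivin) fell by 2.78, Nuf2 by 2.38 and Ndc80 by 2.11 on the log2 scale, and of the anaphase-promoting complex, Cdc20 (its activator) fell by 2.91 and Ube2c (its conjugating enzyme) by 2.41.

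Mki67, the antigen of proliferating nuclei, stood at 129, 125, 137, 111 and 85 CPM at day 4 and at 22.7, 31.8, 28.7, 29.6 and 13.6 CPM at day 13 (-2.10 ± 0.18, adjusted p = 1.2e-15). Top2a (topoisomerase II of mitotic chromosomes) went from 434, 538, 585, 507 and 451 to 79.8, 95.3, 86.3, 90.2 and 68.5 CPM (-2.46 ± 0.10, adjusted p = 2.9e-30). Both genes separated the days in every library. All 47 calls were kept on leaving out any 1 library, with Regular libraries only, and without replicates 2 and 5 of day 13, the libraries highest in stromal markers. All 3 tested stromal, all 3 tested erythroid and 14 of 17 tested brain markers were higher at day 13, and of 10 macrophage markers 1 was higher and 2 lower; with the brain markers as a covariate all 47 calls were kept. The same direction held in related genes that are not members: 39 of 45 other replication genes fell and none rose, with the smallest p-values in Asf1b, a histone chaperone (-2.02 ± 0.12, adjusted p = 1.7e-22), and Lig1, a DNA ligase (-2.08 ± 0.14). Of 54 other mitosis genes 52 fell and none rose, led by Racgap1, a cytokinesis regulator (-2.43 ± 0.13, adjusted p = 8.5e-26), Cks1b, a subunit of CDK complexes (-2.13 ± 0.12), and Ncapd2, a condensin subunit (-2.60 ± 0.15). Of 22 G1 cyclin and RB-E2F genes 11 fell and 2 rose; E2f2 (-1.87 ± 0.21), E2f7 (-1.83 ± 0.21) and E2f8 (-2.03 ± 0.26), all E2F-family factors, led.

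**Figure D1:**
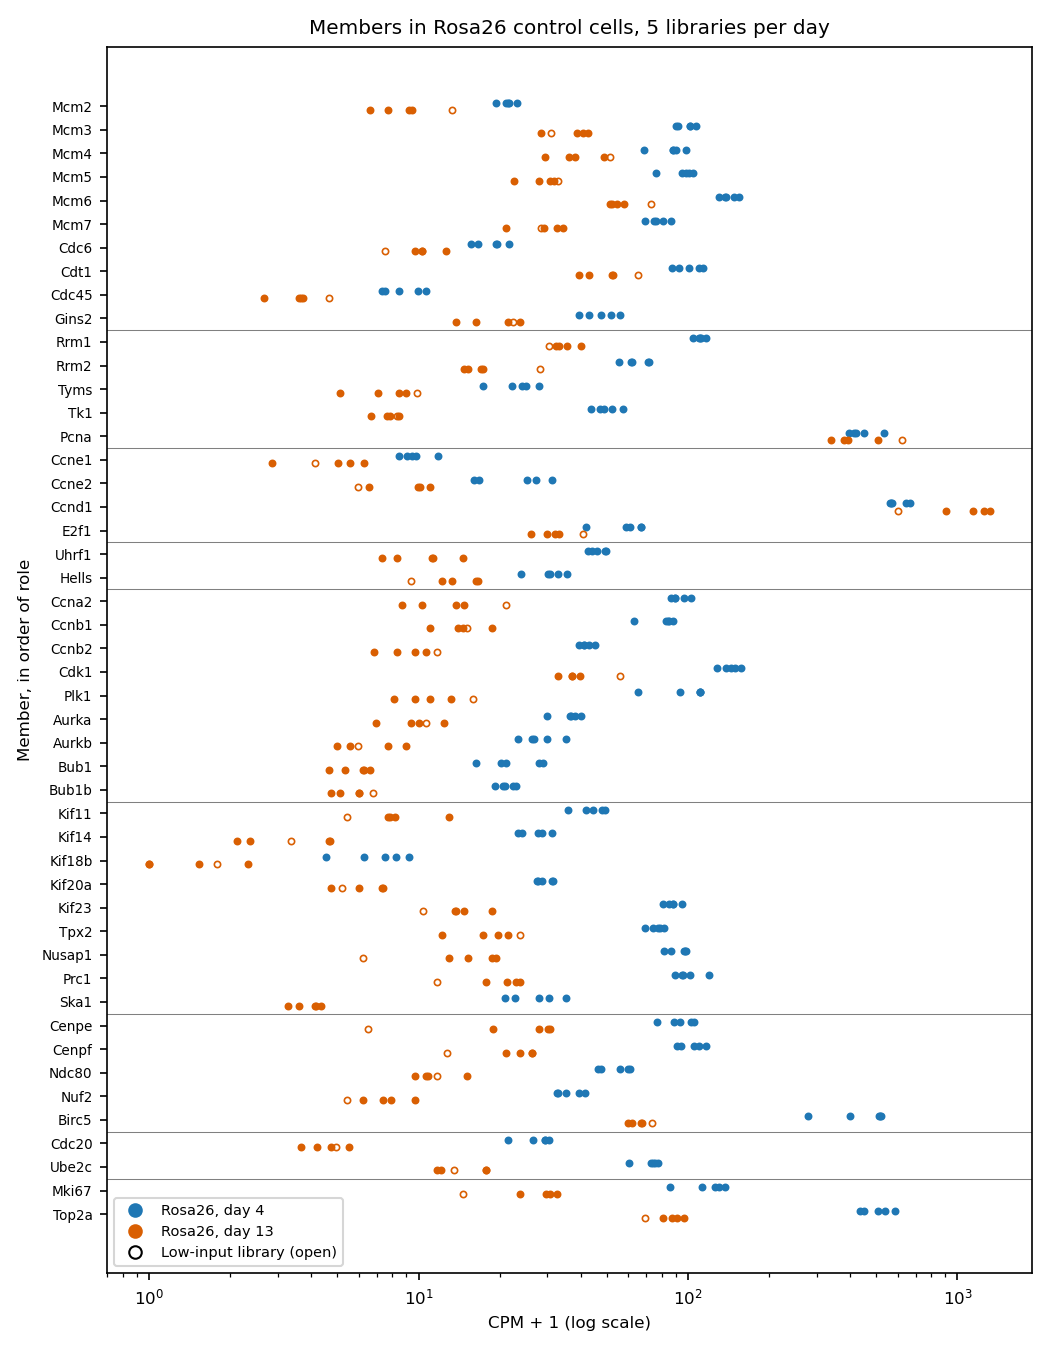
Level in CPM plus 1 (log axis) of the 48 members in the 5 Rosa26 libraries of day 4 and the 5 of day 13, with open points for the Low-input library. The members fell between the days, except Ccnd1, which rose, and Pcna, whose points overlap.

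**Figure D2:**
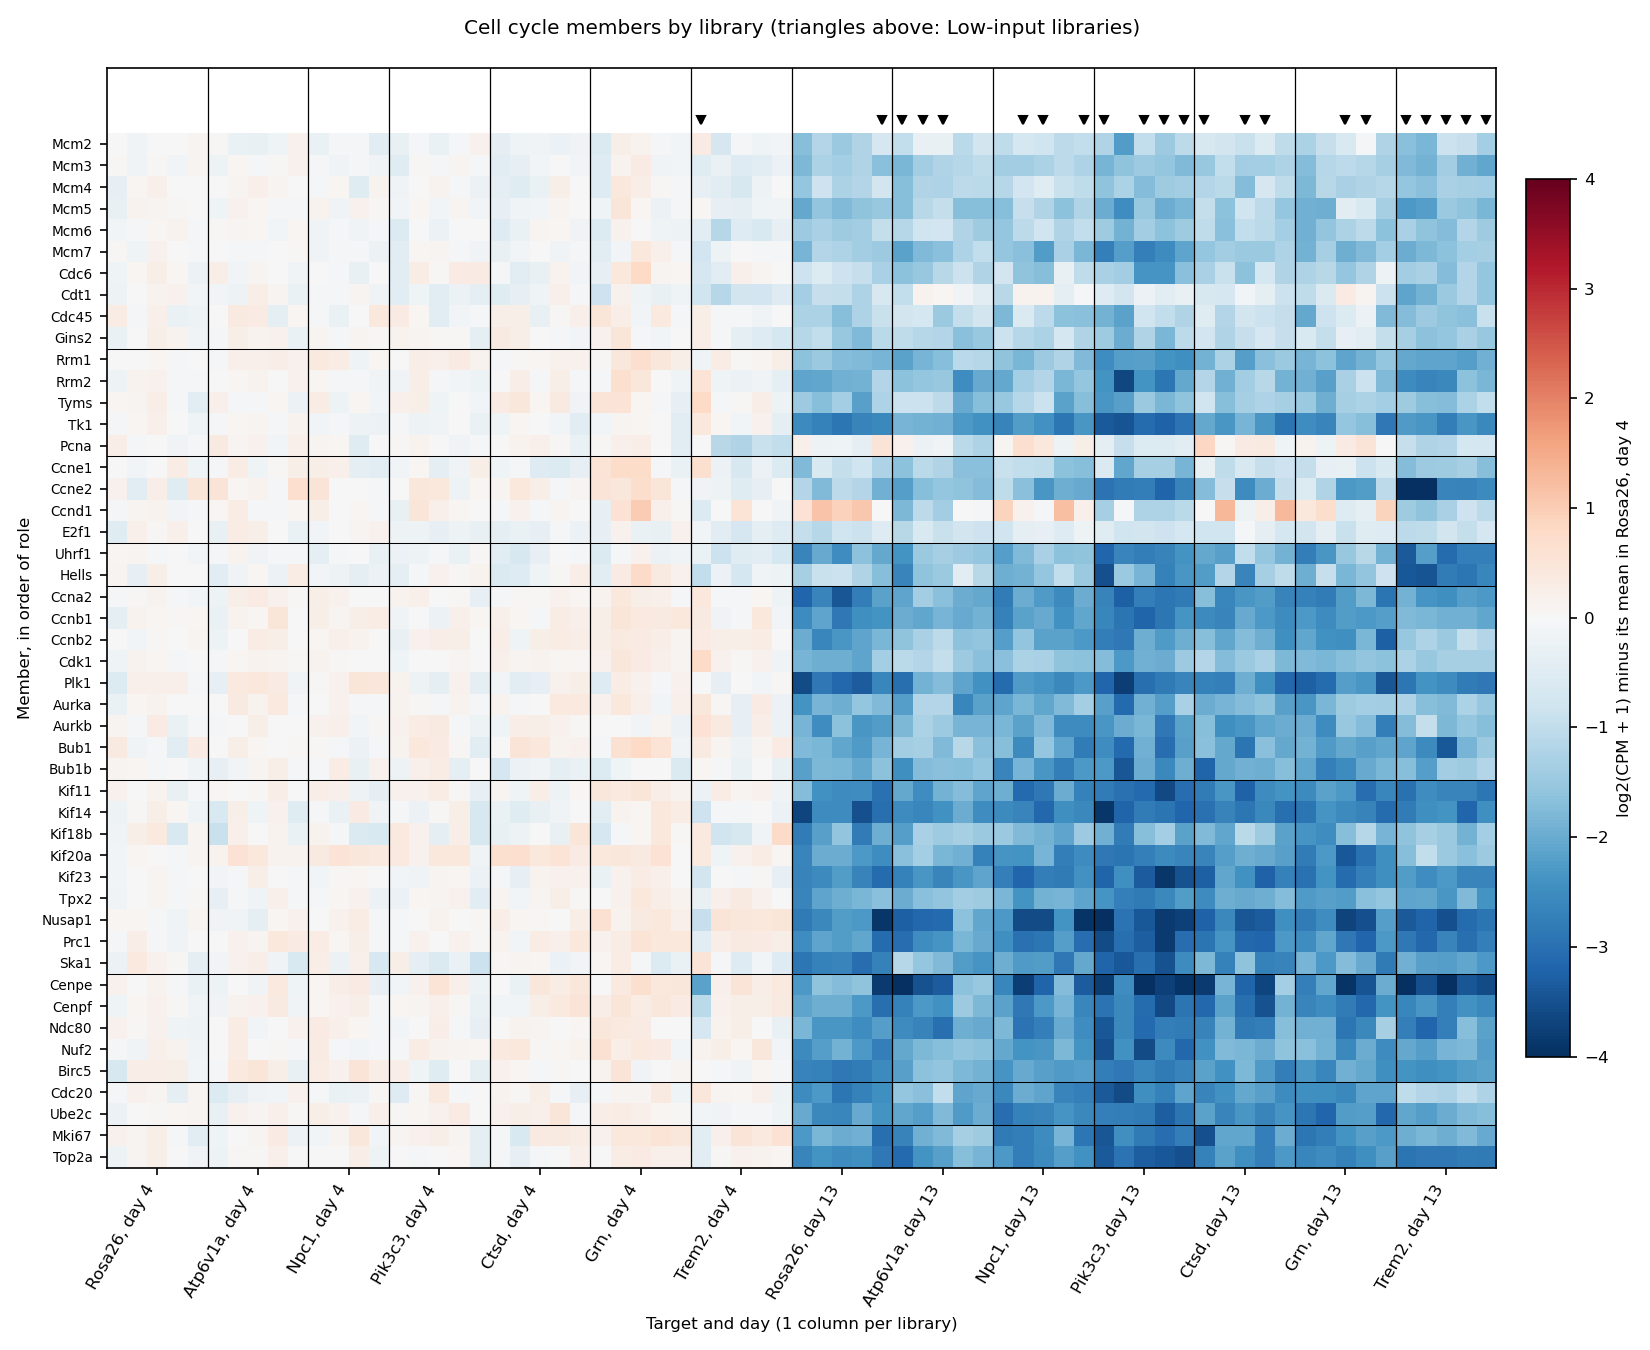
Heat map of the 48 members (rows, in order of role) in the 69 libraries (columns, by target and day), as log2(CPM + 1) minus the gene's mean in Rosa26 cells of day 4; triangles mark Low-input libraries. Most rows are lower in the columns of day 13 than in those of day 4 in every target, and Cenpe, Nusap1 and Ccnd1 are lower in columns with triangles.

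The levels of 9 members were followed through all 14 groups. Group means of Mki67 at day 4 lay between 117 ± 20.3 CPM (Rosa26) and 154 ± 15 CPM (Grn), and at day 13 between 15 ± 3.9 CPM (Pik3c3) and 33.8 ± 11.1 CPM (Atp6v1a). Top2a means ran from 479 (Pik3c3) to 581 CPM (Grn) at day 4 and from 50.4 (Pik3c3) to 110.3 CPM (Atp6v1a) at day 13. Cdk1 means ran from 141 (Pik3c3) to 171 CPM (Grn) and then from 38.7 (Pik3c3) to 59.4 CPM (Atp6v1a). For these 3 genes and for Ccnb1, Mcm5, Rrm2, Ccne1 and E2f1, the lowest group mean of day 4 was above the highest of day 13. Ccnb1 means were 78.6 to 103 and then 10.7 to 20.5 CPM, Mcm5 means 82.2 to 97.8 and then 23.7 to 42.5 CPM, and Rrm2 means 61 to 72.9 and then 9.78 to 22.4 CPM. Ccne1 means were 6.79 to 11.7 and then 2.37 to 5.41 CPM, and E2f1 means 42.8 to 59 and then 30.8 to 42.3 CPM. Ccnd1 did not follow: its means lay between 602 ± 47.7 (Rosa26) and 779 ± 281 CPM (Grn) at day 4, and between 258 ± 55.8 (Trem2) and 1046 ± 294 CPM (Rosa26) at day 13.

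At day 4, no member was called in cells targeted at Atp6v1a, Npc1, Pik3c3 or Ctsd, where 0.00833%, 0.00833%, 0.175% and 0.125% of all tested genes were called in either direction (for Pik3c3, 0.0583% lower and 0.117% higher). At an unadjusted p under 0.05 edgeR gave 2, 2, 4 and 5 members, and DESeq2 called 0, 0, 0 and 1 (Kif20a, a cytokinesis kinesin, in Ctsd cells). Mki67 stood at 104, 116, 126, 147 and 98.2 CPM in Atp6v1a cells, 107, 124, 159 and 106 CPM in Npc1 cells, 125, 130.4, 136, 124 and 89.5 CPM in Pik3c3 cells and 112, 75.2, 149, 149 and 143 CPM in Ctsd cells. All 4 groups overlapped with Rosa26 cells, and the changes were 0.01 ± 0.16, 0.09 ± 0.17, 0.06 ± 0.16 and 0.12 ± 0.16. The median change over the 48 members was 0.04, 0.03, 0.00 and 0.05 in the same order.

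In Grn cells of day 4, 6 members rose and none fell, with 4.45% of all tested genes higher and 3.60% lower (8.04% in all). The median of the members was 0.20, against 0.00 over all genes. Of the 6, 5 are G2/M genes. Ccnb1 stood at 93.7, 111, 105, 102 and 105 CPM, with every library above all of Rosa26, whose highest was 86.7 CPM (0.39 ± 0.11, adjusted p = 0.0151). Cdk1 stood at 159, 196, 179.6, 165 and 155 CPM and overlapped with Rosa26 by 1 library (0.27 ± 0.09, adjusted p = 0.0454). The spindle proteins Prc1 (a bundler of midzone microtubules) and Nusap1 rose by 0.39 ± 0.09 (adjusted p = 0.00394) and 0.36 ± 0.10 (adjusted p = 0.0198). Cenpf (a kinetochore protein) rose by 0.37 ± 0.11 (adjusted p = 0.0184), and Rrm1, the large subunit of ribonucleotide reductase, by 0.40 ± 0.09 (adjusted p = 0.00287). Mki67 (0.40 ± 0.16, adjusted p = 0.101) and Top2a (0.22 ± 0.09, adjusted p = 0.152) were not called.

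Of the 6 calls in Grn cells of day 4, those of Rrm1 and Prc1 were kept without any 1 library. Ccnb1 lost its call without Rosa26 replicate 1 (adjusted p = 0.0628). For Cdk1 this happened without any 1 of Rosa26 replicates 1, 2, 3, 4 and 5 and Grn replicates 1, 2, 3 and 4 (adjusted p from 0.0534 to 0.144), for Cenpf without any 1 of Rosa26 replicates 1 and 5 and Grn replicate 4 (adjusted p from 0.0515 to 0.0673) and for Nusap1 without any 1 of Rosa26 replicates 3 and 4 and Grn replicates 1 and 4 (adjusted p from 0.0541 to 0.108). The count was 3 without Grn replicate 4 and 10 without Grn replicate 5. With no protocol term, and with no filter on low counts, 0 of the 6 were called, all 6 in the same direction; with Regular libraries only, all 6 were called. The sum of brain markers was 212 to 326 CPM, with 13 of 17 tested higher than in Rosa26, and 3 of 3 tested erythroid markers were higher, while 5 of 10 macrophage markers were lower. With the brain markers as a covariate 6 members were called, 3 of them shared with the 6 above. Among related genes that are not members, 5 of 54 other mitosis genes rose, led by the cytokinesis scaffold Anln (0.53 ± 0.13, adjusted p = 0.00372), Hmmr (0.43 ± 0.13) and the checkpoint protein Mad2l1 (0.42 ± 0.13). None of 45 other replication genes was called, and of 22 G1 and RB-E2F genes the ubiquitin ligase subunit Skp2 rose (0.51 ± 0.16, adjusted p = 0.0287).

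In Trem2 cells of day 4, 7 members fell and 2 rose, where 12.9% of all tested genes fell and 11.4% rose (24.3% in all). The members' share in the falling direction is near that of all genes, and in the rising direction it is below it. The 7 that fell are among the 21 G1/S and S-phase members, and both that rose are spindle genes. Pcna stood at 429.8, 203, 189.9, 235 and 219 CPM in the 5 libraries, against 394 to 532 CPM in Rosa26. The high Trem2 library is replicate 1, the Low-input one, and the other 4 lie below all of Rosa26 (-0.97 ± 0.14, adjusted p = 9.8e-08). Cdt1, which loads the MCM helicase, stood at 56.5, 45, 59.9, 58.4 and 68.8 CPM against 86.2, 99.5, 109, 113 and 91.5 CPM. These groups did not overlap (-0.89 ± 0.15, adjusted p = 4.6e-06). The helicase subunits Mcm6 (-0.68 ± 0.11, adjusted p = 8.5e-07), Mcm3 (-0.35 ± 0.12, adjusted p = 0.0174) and Mcm5 (-0.32 ± 0.12, adjusted p = 0.0453) fell as well.

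E2f1 stood at 52.7, 42.3, 35.8, 43.2 and 39.8 CPM in Trem2 cells of day 4, with an overlap with Rosa26 through the lowest Rosa26 library (-0.48 ± 0.12, adjusted p = 0.00214). Uhrf1 fell (-0.62 ± 0.16, adjusted p = 0.00152). Nusap1 rose by 0.43 ± 0.11 (adjusted p = 0.00103) and Prc1 by 0.29 ± 0.09 (adjusted p = 0.0169), while Mki67 (0.35 ± 0.16, adjusted p = 0.0994), Top2a (0.08 ± 0.10, adjusted p = 0.584) and Cdk1 (0.13 ± 0.09, adjusted p = 0.319) were not called. The call of Mcm5 was lost without any 1 of Rosa26 replicates 2, 3, 4 and 5 and Trem2 replicates 1, 2 and 3 (adjusted p from 0.0741 to 0.182), that of Mcm3 without any 1 of Rosa26 replicate 5 and Trem2 replicate 3 (adjusted p from 0.0523 to 0.0641) and that of Prc1 without Rosa26 replicate 4 (adjusted p = 0.0654); the other 6 were kept without any 1 library. The brain marker sum was 122 CPM in the Low-input replicate 1 and 366 to 509 CPM in the Regular libraries. Of tested markers, 16 of 17 brain, 3 of 3 erythroid and 1 of 3 stromal markers were higher. Of 10 macrophage markers 2 were higher and 6 lower. With the brain markers as a covariate 6 of the 9 calls were kept. Of all tested genes 12.9% fell and 11.4% rose in this comparison. Of other replication genes 4 of 45 fell, a share below that of all genes. They were led by the flap nuclease Fen1 (-0.55 ± 0.13, adjusted p = 0.00069), the uracil glycosylase Ung (-0.86 ± 0.21) and the histone chaperone subunit Chaf1b (-0.60 ± 0.21). Of other mitosis genes 5 of 54 fell and 2 rose, both shares below those of all genes. Ncapg2, a condensin subunit, rose (0.94 ± 0.16, adjusted p = 3.7e-06), and the mitotic transcription factors Mybl2 (-0.71 ± 0.22) and Foxm1 (-0.44 ± 0.15) fell. Of G1 and RB-E2F genes 4 of 22 rose and 1 fell: the RB relative Rbl2 (0.97 ± 0.15) and the cyclin Ccnd2 (1.06 ± 0.21) rose, and the G1 kinase Cdk6 (-0.84 ± 0.13) fell.

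At day 13 the comparisons with Rosa26 cells of the same day rest on the low levels that remained, and all 6 share the same 5 Rosa26 libraries. Within Low-input libraries the only Rosa26 control is replicate 5. Its stromal marker sum was 305.6 CPM, against 22.0 to 89.5 CPM in the other Rosa26 libraries of day 13. Checks within Low-input libraries therefore match the protocol and not the stromal content.

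In Pik3c3 cells of day 13, 14 members fell and none rose, where 6.10% of all tested genes fell and 7.11% rose (13.2% in all). The median of the 48 members was -0.44, against -0.02 over all genes. Of the 14, 11 are G1/S and S-phase members and 3 are G2/M members, and the medians of the 2 phases were -0.62 and -0.42. All 5 genes of nucleotide supply and replication fell. Rrm2 stood at 11.2, 4.14, 11.2, 7.72 and 14.6 CPM, against 13.8, 14.3, 16, 16.4 and 27.2 CPM in Rosa26. The lowest Pik3c3 library is replicate 2, the Regular one, and the Low-input replicate 5 overlaps with the Regular libraries of Rosa26 (-1.27 ± 0.18, adjusted p = 7.9e-08). Pcna stood at 331, 233, 302, 302 and 319 CPM, every library below the lowest of Rosa26 (-0.94 ± 0.15, adjusted p = 9.9e-07). Tk1 stood at 3.83, 3.5, 4.87, 4.29 and 5.35 CPM against 7.46, 6.62, 5.67, 6.83 and 7.32 CPM, with no overlap (-0.92 ± 0.20, adjusted p = 0.00094). Tyms, thymidylate synthase (-0.72 ± 0.25, adjusted p = 0.0384) and Rrm1 (-0.39 ± 0.12, adjusted p = 0.0203) fell too.

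Among the G1/S regulators of Pik3c3 cells, Ccnd1 stood at 240.1, 568, 257, 255 and 283 CPM, against 906, 1319, 1145, 1258 and 601 CPM in Rosa26. Replicate 2, the Regular library, is the high one, and it lies below every Rosa26 library (-1.06 ± 0.15, adjusted p = 1.2e-07). Ccne2, cyclin E2, fell (-1.43 ± 0.37, adjusted p = 0.00406), while Ccne1 (-0.62 ± 0.32, adjusted p = 0.219) and E2f1 (0.07 ± 0.14, adjusted p = 0.829) were not called. Ccne2 rested on few reads, with 7, 7, 8, 5 and 9 counts in the Pik3c3 libraries. Of the helicase, Mcm7 (-0.81 ± 0.16, adjusted p = 8e-05), Mcm5 (-0.60 ± 0.16, adjusted p = 0.00413) and Mcm6 (-0.47 ± 0.12, adjusted p = 0.00448) fell. Mcm5 stood at 22.7, 15.9, 31.8, 22.9 and 25.3 CPM and overlapped with Rosa26. Uhrf1 fell (-0.82 ± 0.25, adjusted p = 0.0149). Of the mitotic genes, Ube2c (-0.68 ± 0.18, adjusted p = 0.00445), Prc1 (-0.55 ± 0.15, adjusted p = 0.00516) and Top2a were called. Top2a stood at 48.1, 64, 50.5, 46.9 and 42.5 CPM, below all of Rosa26 (-0.46 ± 0.11, adjusted p = 0.00252). Mki67 stood at 9.84, 20.4, 15.5, 13.2 and 16.3 CPM and overlapped with Rosa26 through the Low-input control (-0.38 ± 0.22, adjusted p = 0.289), and Cdk1 (-0.26 ± 0.11, adjusted p = 0.113) and Ccnb1 (-0.45 ± 0.17, adjusted p = 0.0581) were not called either.

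Within the Low-input libraries (4 Pik3c3 against 1 Rosa26), Rrm2, Pcna, Ccnd1 and Mcm7 changed by -1.20 ± 0.30, -0.92 ± 0.21, -1.14 ± 0.21 and -1.04 ± 0.26. That control is Rosa26 replicate 5, the highest in stromal markers and in Rrm2 among the Rosa26 libraries of this day. The part of its stromal content in these changes was not tested within the Low-input set. Within the Regular libraries (1 against 4), Rrm2, Pcna, Ccnd1 and Prc1 changed by -1.85 ± 0.38, -0.79 ± 0.22, -1.02 ± 0.27 and -0.83 ± 0.25. The genes named for each set are those of the 14 with the largest changes relative to their SE. Others were less certain, such as Mcm5 (-0.24 ± 0.27) and Prc1 (-0.28 ± 0.30) in Low-input libraries and Uhrf1 (-0.54 ± 0.37) and Tyms (-0.64 ± 0.47) in Regular ones. All 14 had the same direction in either set; the lone library of a group is assumed to vary like the others. The call of Tyms was lost without any 1 of Rosa26 replicates 1 and 3 and Pik3c3 replicates 1 and 4 (adjusted p from 0.0662 to 0.131), that of Uhrf1 without any 1 of Rosa26 replicate 4 and Pik3c3 replicate 1 (adjusted p from 0.0631 to 0.0676), that of Rrm1 without any 1 of Rosa26 replicate 5 and Pik3c3 replicate 2 (adjusted p from 0.0876 to 0.134) and that of Prc1 without Pik3c3 replicate 2 (adjusted p = 0.0576). All 3 tested stromal markers were lower, with sums of 1.43 to 50.9 CPM, and without both Rosa26 libraries highest in them 11 of the 14 calls were kept. Of 10 macrophage markers 2 were higher and 5 lower, 1 of 3 tested erythroid markers was lower, and 1 of 2 tested neutrophil and progenitor markers was higher. Of related genes that are not members, 5 of 45 replication genes fell and 1 rose: the mismatch repair gene Msh6 fell (-0.47 ± 0.14, adjusted p = 0.0147), and the clamp loader subunit Rfc2 rose (0.71 ± 0.12, adjusted p = 2.5e-06). Of other mitosis genes 8 of 54 fell and 2 rose, led by the kinase Pbk (-0.88 ± 0.22), the centromeric histone Cenpa (-0.53 ± 0.13) and Cdca2 (-1.26 ± 0.34), all lower. E2f7, a repressive E2F (-1.59 ± 0.32, adjusted p = 0.0002), and Cdk6 (-0.42 ± 0.14) fell among 22 G1 and RB-E2F genes.

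In Atp6v1a cells of day 13, 15 members rose and 2 fell, where 12.8% of all tested genes rose and 11.6% fell (24.4% in all). Of 27 G2/M members 14 rose and none fell (median 0.48); of 21 G1/S and S-phase members Cdt1 rose and Ccnd1 and Pcna fell (median 0.00). The median over all genes tested was 0.02. Cdc20 stood at 8.37, 7.46, 12.8, 5.27 and 5.76 CPM, against 3.73, 4.5, 2.67, 3.19 and 3.92 CPM in Rosa26. The groups did not overlap (0.90 ± 0.24, adjusted p = 0.00319). Birc5 stood at 94.4, 138, 144, 124 and 116 CPM against 66.7, 65.7, 59, 61.1 and 72.4 CPM, again with no overlap (0.78 ± 0.14, adjusted p = 9.8e-06). Among mitotic cyclins and kinases Ccna2, the cyclin of S phase and G2, rose by 0.72 ± 0.14 (adjusted p = 3.6e-05), Plk1 by 0.68 ± 0.21 (adjusted p = 0.0122) and Ccnb2 by 0.64 ± 0.18 (adjusted p = 0.00406). Cdk1 stood at 66.7, 62, 73.4, 50.9 and 44.1 CPM; the Low-input replicates 1 to 3 lie above all of Rosa26 and the Regular ones above its Regular libraries (0.37 ± 0.10, adjusted p = 0.00498). Ccnb1 stood at 19.4, 17.9, 21.1, 18.7 and 20.5 CPM, above every Rosa26 library, yet missed the threshold (0.37 ± 0.15, adjusted p = 0.055).

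Kinesin and spindle genes rose with them: Ska1 (a spindle-kinetochore coupler) by 0.96 ± 0.30 (adjusted p = 0.0127), Nusap1 by 0.58 ± 0.15 (adjusted p = 0.00275) and Kif11 (the bipolar spindle motor) by 0.52 ± 0.20 (adjusted p = 0.0454), with Tpx2 named to complete the count. At the kinetochore Nuf2 rose by 0.72 ± 0.20 (adjusted p = 0.00333) and Cenpf by 0.44 ± 0.14 (adjusted p = 0.0158). Mki67 stood at 17.5, 29.9, 33.6, 45.1 and 43.1 CPM and overlapped with Rosa26; replicates 4 and 5, the Regular libraries, were the highest (0.58 ± 0.19, adjusted p = 0.0203). Top2a stood at 56.5, 93.7, 111, 153 and 138 CPM, with the Low-input replicate 1 the lowest (0.48 ± 0.11, adjusted p = 0.00026). Against this direction, Ccnd1 stood at 172, 290.0, 227, 592 and 584 CPM, every library below all of Rosa26 (-1.21 ± 0.15, adjusted p = 8.5e-10). Pcna stood at 499, 375, 399, 209 and 185 CPM, and its Regular libraries were the low ones (-0.77 ± 0.14, adjusted p = 2.3e-05). Cdt1 rose by 0.56 ± 0.16 (adjusted p = 0.00523). Mcm5 (0.00 ± 0.15, adjusted p = 0.993), Rrm2 (-0.35 ± 0.16, adjusted p = 0.11), Ccne1 (-0.74 ± 0.31, adjusted p = 0.0723) and E2f1 (-0.09 ± 0.13, adjusted p = 0.689) were not called.

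Within Regular libraries (2 Atp6v1a against 4 Rosa26) 11 of the 17 calls were kept, among them Ccna2 (0.93 ± 0.18, adjusted p = 0.00014), Birc5 (0.85 ± 0.20, adjusted p = 0.00155), Top2a (0.65 ± 0.13, adjusted p = 0.00019), Ccnd1 (-1.05 ± 0.20, adjusted p = 0.00012) and Pcna (-1.11 ± 0.17, adjusted p = 2.8e-06). Within Low-input libraries (3 against 1) Birc5 (0.78 ± 0.21, adjusted p = 0.0181) and Ccnd1 (-1.40 ± 0.22, adjusted p = 0.00016) kept theirs, and 16 of the 17 had the same direction, the exception being Tpx2 (-0.08 ± 0.28, adjusted p = 0.912). The call of Tpx2 was lost without any 1 of Rosa26 replicates 1 and 2 and Atp6v1a replicates 2, 4 and 5 (adjusted p from 0.0585 to 0.118), that of Kif11 without any 1 of Rosa26 replicates 2, 3, 4 and 5 and Atp6v1a replicates 1, 3 and 4 (adjusted p from 0.0773 to 0.16) and that of Ska1 without any 1 of Rosa26 replicate 5 and Atp6v1a replicate 1 (adjusted p from 0.0595 to 0.104). Likewise Cenpf lost its call without any 1 of Rosa26 replicate 5 and Atp6v1a replicates 2 and 4 (adjusted p from 0.052 to 0.0669), Mki67 without any 1 of Rosa26 replicate 5 and Atp6v1a replicates 2 and 4 (adjusted p from 0.052 to 0.115) and Plk1 without Atp6v1a replicate 4 (adjusted p = 0.054). All 3 tested stromal markers were lower, with sums of 4.75 to 19.5 CPM, and without both Rosa26 libraries highest in them 10 of the 17 calls were kept and 11 members were called. Macrophage markers fell for 7 of 10 and rose for 1, and 1 of 2 tested neutrophil and progenitor markers rose. Of 3 tested erythroid markers 1 was lower, as were 2 of 17 tested brain markers. Of other mitosis genes 12 of 54 rose and 2 fell: Cks1b (0.58 ± 0.13, adjusted p = 0.00023) and Hmmr (0.90 ± 0.20) rose and Cenpa fell (-0.59 ± 0.13). Of other replication genes 5 of 45 rose and 2 fell, where 12.8% and 11.6% of all tested genes did. The deubiquitinase Usp1 (0.63 ± 0.10, adjusted p = 5.9e-07) and the origin kinase subunit Dbf4 (0.57 ± 0.14) were higher and Msh6 was lower (-0.61 ± 0.14). Of G1 and RB-E2F genes 2 of 22 rose and 3 fell; Cdk4, the partner of cyclin D, rose (0.67 ± 0.14), Lin54, the CHR-binding subunit of DREAM, rose (0.44 ± 0.15) and Ccnd2 fell (-0.61 ± 0.20).

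In Trem2 cells of day 13, 10 members fell and 8 rose, where 10.9% of all tested genes fell and 11.3% rose (22.2% in all). All 10 that fell are G1/S or S-phase members (median of the 21 -0.47), and all 8 that rose are G2/M members (median of the 27 0.34). Every Trem2 library of day 13 is Low-input, against 1 of the 5 Rosa26 libraries, so these changes rest on the protocol term. Pcna stood at 233, 188, 195, 268 and 267 CPM, against 505, 378, 391, 338 and 622 CPM in Rosa26, the last of them the Low-input library. The groups did not overlap (-1.45 ± 0.15, adjusted p = 1.2e-11). Rrm2 stood at 10.2, 9.29, 9.73, 19.4 and 16.9 CPM and overlapped with the Regular Rosa26 libraries, while all 5 lay below the Low-input one at 27.2 CPM (-0.96 ± 0.18, adjusted p = 2.3e-05). Cdt1 stood at 22.4, 26.1, 35.2, 43.9 and 33.3 CPM against 38.4, 51.6, 51, 41.9 and 64 CPM; 4 of the 5 Trem2 libraries lay below all of Rosa26 (-0.97 ± 0.18, adjusted p = 2.6e-05). Mcm5 (-0.64 ± 0.16, adjusted p = 0.00219) and Mcm6 (-0.45 ± 0.13, adjusted p = 0.00647) fell.

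Ccnd1 stood at 224, 198, 242, 337 and 291 CPM in Trem2 cells of day 13, all below every Rosa26 library, of which the Low-input one was the lowest at 601 CPM (-1.09 ± 0.16, adjusted p = 1.3e-07). Ccne2 (-1.53 ± 0.41, adjusted p = 0.00343) and Ccne1 (-0.98 ± 0.34, adjusted p = 0.031) fell, and E2f1 was not called (-0.16 ± 0.15, adjusted p = 0.475). Both cyclins rested on few reads, with 1, 1, 7, 9 and 10 counts for Ccne2 and 6, 7, 7, 10 and 7 for Ccne1 in Trem2 libraries. Both chromatin factors fell, Hells (-1.46 ± 0.33, adjusted p = 0.00051) and Uhrf1 (-0.98 ± 0.26, adjusted p = 0.00314). In the other direction, Cdc20 stood at 12.5, 11.1, 10.5, 12.8 and 10.4 CPM, against 3.73, 4.5, 2.67, 3.19 and 3.92 CPM in Rosa26. No Trem2 library reached down to the Rosa26 range (1.34 ± 0.25, adjusted p = 2.6e-05). Kif20a rose by 0.81 ± 0.24 (adjusted p = 0.00888), Kif23 (a cytokinesis motor) by 0.57 ± 0.18 (adjusted p = 0.0171) and Ccnb2 by 0.73 ± 0.19 (adjusted p = 0.00241). Nuf2 (0.61 ± 0.22, adjusted p = 0.0371), Nusap1 (0.56 ± 0.18, adjusted p = 0.0207) and Cenpf (0.44 ± 0.16, adjusted p = 0.0427) rose as well.

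The call of Mki67 depended on the protocol term. Mki67 stood at 29.2, 31.8, 29.2, 33.6 and 27.7 CPM in Trem2 cells, overlapping with the 4 Regular Rosa26 libraries (22.7 to 31.8 CPM) and all above the Low-input one (13.6 CPM), and was called (0.74 ± 0.22, adjusted p = 0.00827). With no protocol term its change was 0.19 ± 0.24 (adjusted p = 0.535). Top2a (0.06 ± 0.12, adjusted p = 0.751), Cdk1 (0.16 ± 0.11, adjusted p = 0.329) and Ccnb1 (0.41 ± 0.16, adjusted p = 0.0558) were not called. With no protocol term 16 of the 18 calls had the same direction and 9 were kept, and Nusap1 (-0.63 ± 0.34, adjusted p = 0.128) and Cenpf (-0.39 ± 0.25, adjusted p = 0.203) turned. Within Low-input libraries (5 Trem2 against 1 Rosa26), all 18 had the same direction and 7 were kept: Pcna (-1.41 ± 0.20, adjusted p = 2.6e-05), Ccnd1 (-1.20 ± 0.21, adjusted p = 0.00037), Cdc20 (1.56 ± 0.43, adjusted p = 0.0235), Cdt1 (-0.97 ± 0.27, adjusted p = 0.0274), Rrm2 (adjusted p = 0.0298), Mki67 (1.18 ± 0.35, adjusted p = 0.0396) and Kif20a (1.24 ± 0.38, adjusted p = 0.0466). The Regular libraries of day 13 include none of Trem2.

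Several calls in Trem2 cells of day 13 were lost with 1 library. Rosa26 replicate 5, the Low-input control, was among these for 6 genes, all of G2/M. Mki67 lost its call without Rosa26 replicate 5 (adjusted p = 0.0926), Kif20a without Rosa26 replicate 5 (adjusted p = 0.114), Kif23 without any 1 of Rosa26 replicate 5 and Trem2 replicate 1 (adjusted p from 0.0511 to 0.0836) and Nusap1 without any 1 of Rosa26 replicates 2 and 5 and Trem2 replicate 5 (adjusted p from 0.059 to 0.0934). Nuf2 did so without any 1 of Rosa26 replicates 1, 2 and 5 and Trem2 replicates 3 and 4 (adjusted p from 0.0642 to 0.18), Cenpf without any 1 of Rosa26 replicates 1, 2, 4 and 5 and Trem2 replicates 2, 4 and 5 (adjusted p from 0.053 to 0.157) and Ccne1 without any 1 of Rosa26 replicates 2, 3 and 4 and Trem2 replicates 1 and 5 (adjusted p from 0.0544 to 0.107). The other 11 calls were kept. Of 3 tested erythroid markers 1 was lower. Of the stromal markers 2 of 3 tested were lower, with sums of 4.27 to 66.1 CPM and Lum at 0. Without both Rosa26 libraries highest in them, 10 of the 18 calls were kept, 9 lower and 1 higher. All 18 had the same direction. This also left out Rosa26 replicate 5, the only Low-input control, so stromal content and protocol cannot be told apart here. The 10 macrophage markers summed to 22590 to 24730 CPM, against 11050 to 15390 CPM in Rosa26, and 3 rose and 1 fell. These sums keep the protocol difference, and the highest Rosa26 sum was that of the Low-input library. Of other replication genes 8 of 45 fell and none rose, led by the origin subunit Orc6 (-1.05 ± 0.28, adjusted p = 0.00368), Tipin (-0.45 ± 0.13) and the dUTPase Dut (-0.56 ± 0.16). Of other mitosis genes 8 of 54 rose and 1 fell, led by Cenpa (0.81 ± 0.13, adjusted p = 1.8e-06) and the condensin genes Ncapg2 (1.15 ± 0.19) and Smc4 (0.53 ± 0.13), all higher. Of G1 and RB-E2F genes 4 of 22 rose and 5 fell; Cdk6 (-0.72 ± 0.14), the RB relative Rbl1 (-1.19 ± 0.27) and E2f7 (-1.34 ± 0.33) fell.

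In Grn cells of day 13, 5 members rose and none fell, where 12.5% of all tested genes rose and 12.7% fell (25.2% in all). The members' share in the rising direction is thus near that of all genes. Gins2, of the replicative helicase complex, rose by 0.64 ± 0.16 (adjusted p = 0.00189), Cdt1 by 0.61 ± 0.16 (adjusted p = 0.00236), Mcm5 by 0.46 ± 0.14 (adjusted p = 0.0117), Tk1 by 0.53 ± 0.17 (adjusted p = 0.0141) and Birc5 by 0.47 ± 0.14 (adjusted p = 0.00744). Mcm5 stood at 24.1, 23.1, 68.2, 60.9 and 36.2 CPM, against 21.6, 30.7, 27, 29.6 and 31.9 CPM in Rosa26. Replicates 3 and 4, the Low-input ones, are the high libraries. Replicates 1 and 2 lie within the Rosa26 range, and the Regular replicate 5 lies above it. Within Low-input libraries (2 Grn against 1 Rosa26) the change of Mcm5 was 1.09 ± 0.29 (adjusted p = 0.0243) and within Regular ones (3 against 4) 0.12 ± 0.16 (adjusted p = 0.623). For Tk1 the same values were 1.12 ± 0.29 (adjusted p = 0.0221) and 0.15 ± 0.23 (adjusted p = 0.688), and Gins2 kept its call within Regular libraries (0.60 ± 0.19, adjusted p = 0.0144). E2f1 (0.52 ± 0.15, adjusted p = 0.00944) and Cdk1 (0.32 ± 0.11, adjusted p = 0.0281) were called by edgeR within Regular libraries, though not in the full fit. Mki67 stood at 14.8, 16.2, 21.3, 25.2 and 22.9 CPM and overlapped with Rosa26 (-0.10 ± 0.20, adjusted p = 0.766). Ccnd1 stood at 799, 970.1, 419, 470.4 and 1110 CPM, and its Low-input libraries were the low ones (-0.25 ± 0.14, adjusted p = 0.209). Mcm5 lost its call without any 1 of Rosa26 replicate 5 and Grn replicate 3 (adjusted p from 0.0775 to 0.125) and Tk1 without any 1 of Rosa26 replicate 5 and Grn replicate 3 (adjusted p from 0.0837 to 0.14).

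Markers moved in Grn cells of day 13 too: brain markers summed to 92.3 to 129 CPM, with 13 of 17 tested lower than in Rosa26, and all 3 tested stromal (sums of 4.03 to 8.31 CPM) and all 3 tested erythroid markers were lower. Of 10 macrophage markers 6 were lower and 1 higher, and 1 of 2 tested neutrophil and progenitor markers was higher. With the brain covariate 3 of the 5 calls were kept, and without both Rosa26 libraries highest in stromal markers 2 were. Of other replication genes 9 of 45 rose and 1 fell, led by the replication protein Rpa2 (0.80 ± 0.17, adjusted p = 0.00023), Dbf4 (0.54 ± 0.14) and Fen1 (0.56 ± 0.14), all higher. Of other mitosis genes 4 of 54 rose and 1 fell, where 12.5% and 12.7% of all tested genes did. The kinetochore gene Spc25 (0.69 ± 0.13) and Cks1b (0.56 ± 0.12) rose, and the cytokinesis kinase Cit fell (-1.01 ± 0.28). Of G1 and RB-E2F genes 2 of 22 rose and 2 fell; Rb1, the retinoblastoma gene, fell (-0.69 ± 0.12, adjusted p = 4.4e-06), and Skp2 (0.62 ± 0.18) and Cdk4 (0.37 ± 0.14) rose.

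In Npc1 cells of day 13 1 member, Cdt1, rose, where 2.71% of all tested genes rose and 1.76% fell (4.46% in all). It stood at 45.5, 109, 110.1, 75.2 and 95.7 CPM, with Low-input replicates 2 and 3 the highest, and overlapped with Rosa26 through replicate 1 (0.58 ± 0.16, adjusted p = 0.0221). The call was lost without any 1 of Rosa26 replicates 1, 4 and 5 and Npc1 replicate 4 (adjusted p from 0.0524 to 0.0629). Within Regular libraries the change was 0.38 ± 0.19 (adjusted p = 0.385) and within Low-input ones 0.73 ± 0.30 (adjusted p = 0.421), and neither was called. All 3 tested stromal markers were lower, with sums of 4.86 to 22.3 CPM, as were 2 of 10 macrophage markers, and without both Rosa26 libraries highest in stromal markers Cdt1 was not called (0.61 ± 0.20, adjusted p = 0.0771). Of other replication genes 2 of 45 rose, Rpa2 (0.70 ± 0.17, adjusted p = 0.00852) and Lig1 (0.47 ± 0.14); of other mitosis genes Cks1b rose (0.59 ± 0.13) and Gtse1 fell (-1.06 ± 0.33); and of the G1 genes the phosphatase Cdc25a rose (0.55 ± 0.16). In Ctsd cells of day 13 edgeR called no member, and 0.200% of all tested genes were called in either direction. At an unadjusted p under 0.05 edgeR gave 3 members, all higher, and DESeq2 called 0; all 3 tested stromal markers were lower in these cells too. Mki67 stood at 15.5, 16.1, 19.4, 31.5 and 14.9 CPM in Npc1 cells and 9.18, 26.7, 26.7, 16.7 and 28.6 CPM in Ctsd cells, overlapping with Rosa26 in both (-0.18 ± 0.21 and -0.04 ± 0.21). Ccnd1 stood at 1121, 677, 571, 1373 and 697 CPM and 596, 1499, 522, 726 and 1482 CPM, with the Low-input libraries low in both groups (0.14 ± 0.15 and 0.21 ± 0.15).

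**Figure D3:**
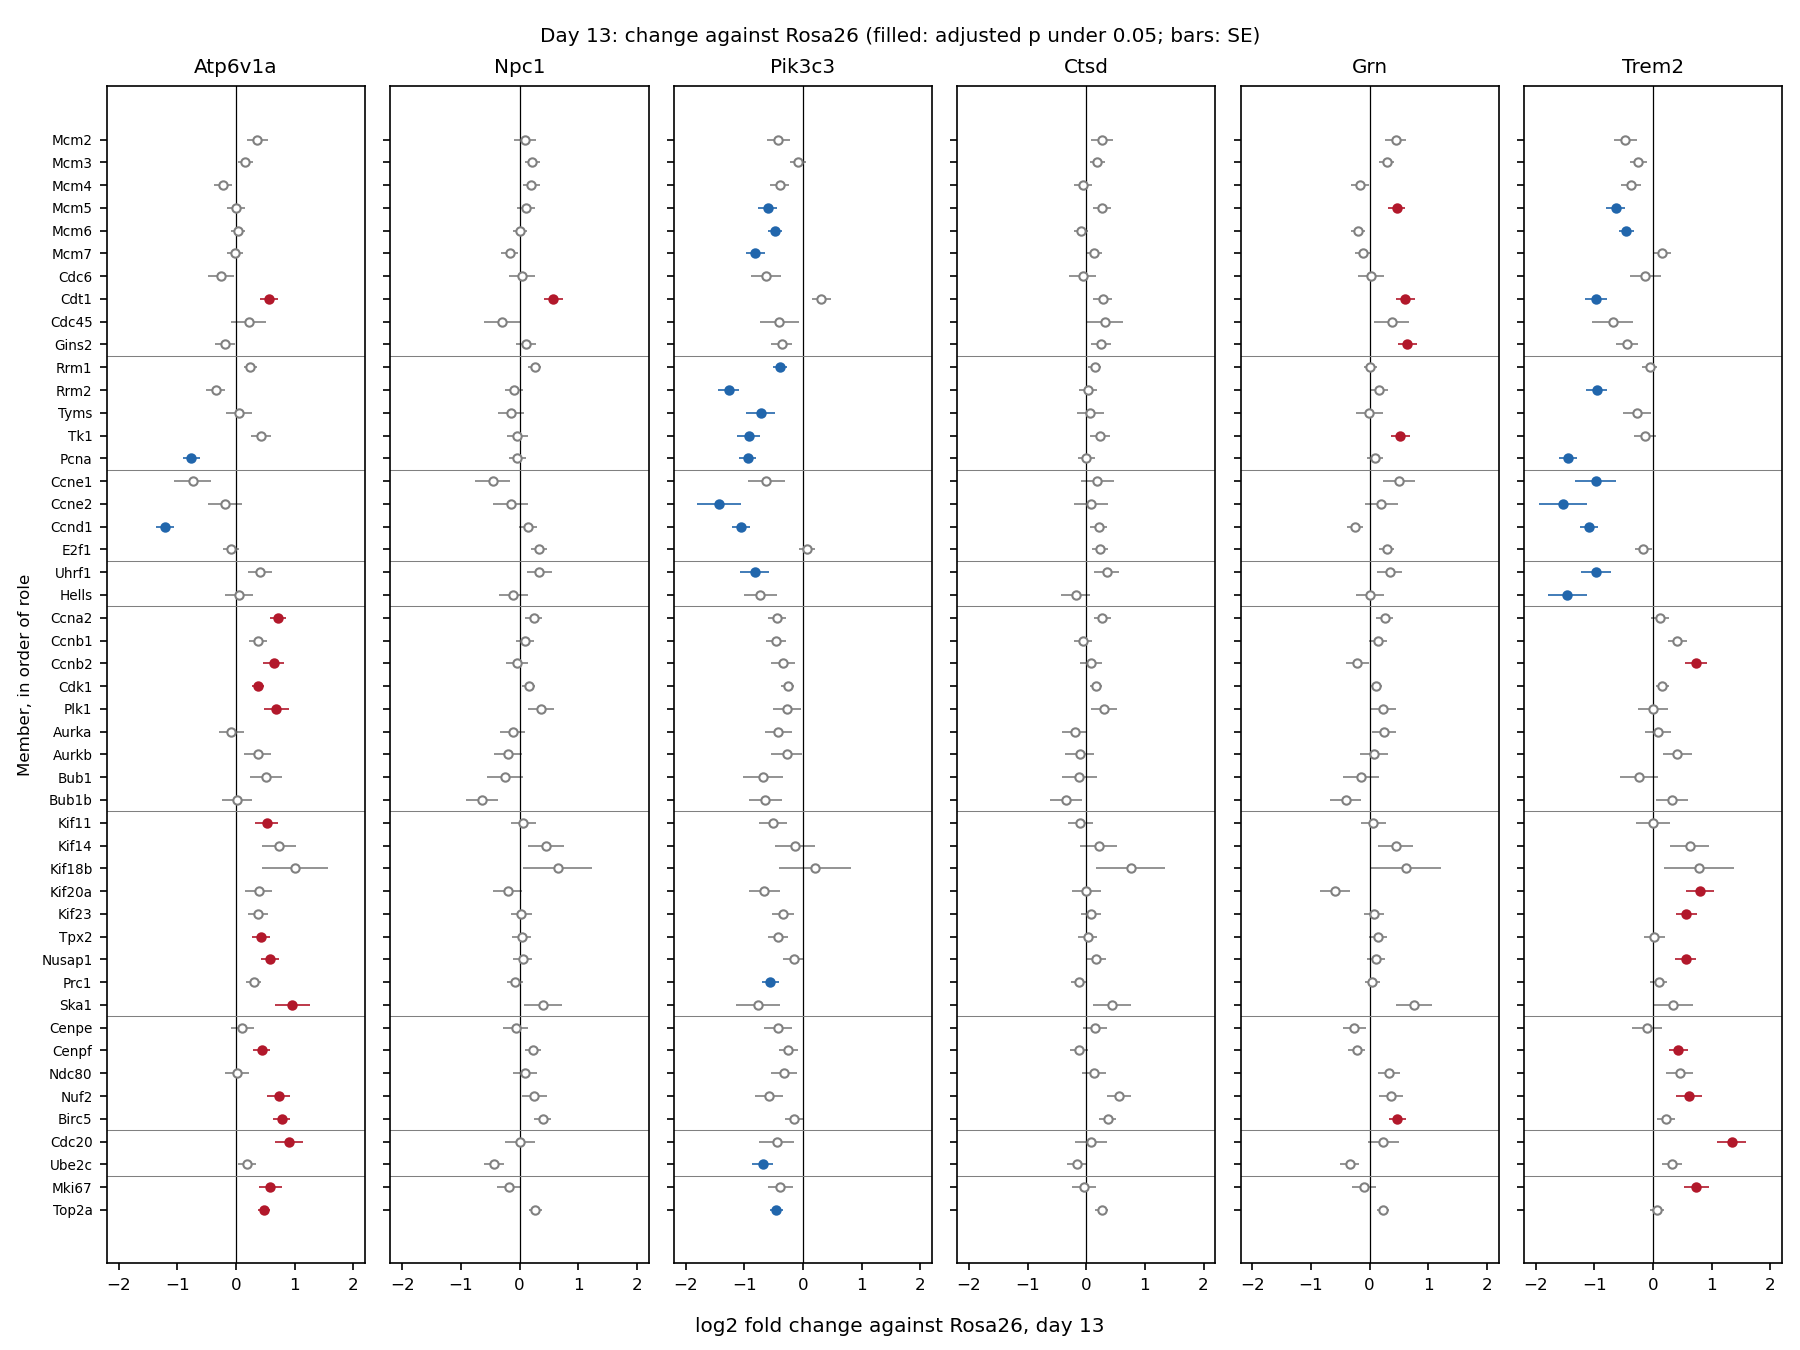
Log2 fold change against Rosa26 cells of day 13 (x axis) for each member (y axis, in order of role) in the 6 targeted groups, with SE bars and filled points at an adjusted p under 0.05. Filled points lie on the right for mitotic genes in Atp6v1a cells, on the left for S-phase genes in Pik3c3 cells, and on both sides by phase in Trem2 cells, with 17, 14 and 18 filled points.

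**Figure D4:**
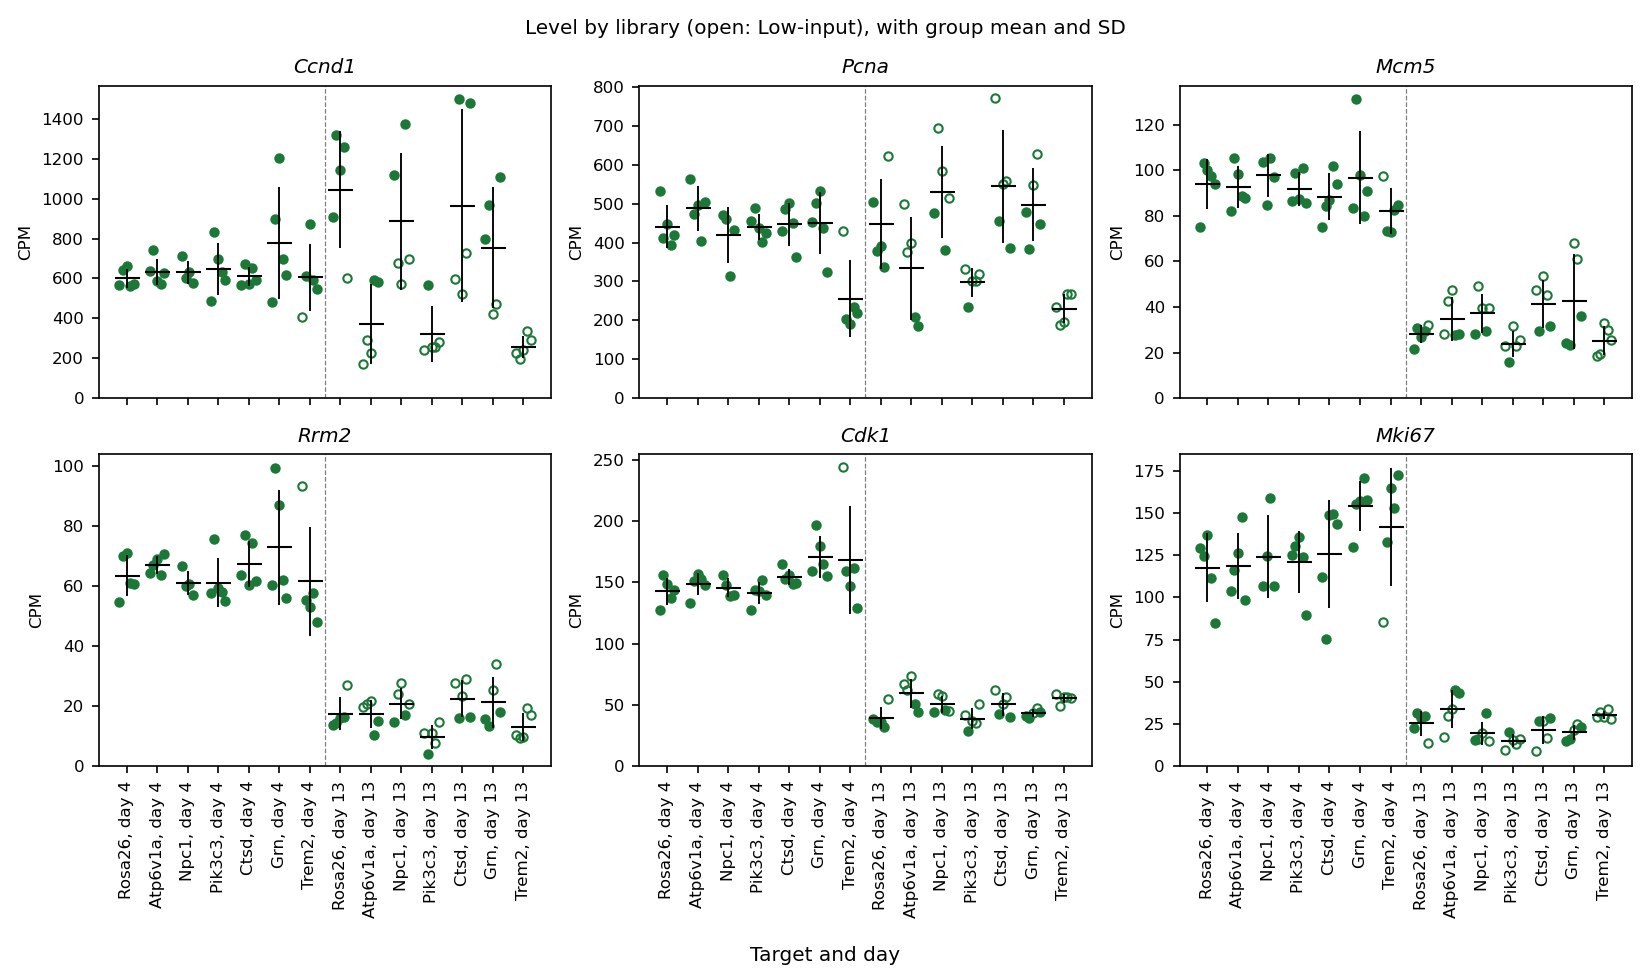
CPM of Ccnd1, Pcna, Mcm5, Rrm2, Cdk1 and Mki67 in each library of the 14 groups, with group mean and SD and open points for Low-input libraries. Ccnd1 of day 13 is low in all Trem2 libraries and in the Low-input libraries of every group, and Mcm5, Rrm2, Cdk1 and Mki67 are lower at day 13 in all groups.

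Whether an edit's effect differed between the days was tested as an interaction in the same fit. For Atp6v1a, 7 members had a higher and 2 a lower effect at day 13, where 5.56% and 5.81% of all genes did. The lower ones were Ccnd1 (-1.28 ± 0.21, adjusted p = 3.3e-06) and Pcna (-0.91 ± 0.20, adjusted p = 0.00071). The higher ones were Cdc20 (1.08 ± 0.29, adjusted p = 0.00599), Ska1 (1.05 ± 0.35, adjusted p = 0.0371), Nuf2 (0.67 ± 0.23, adjusted p = 0.0489), Nusap1 (0.65 ± 0.19, adjusted p = 0.0127), Birc5 (0.65 ± 0.19, adjusted p = 0.013), Ccna2 (0.60 ± 0.17, adjusted p = 0.0131) and Top2a (0.47 ± 0.14, adjusted p = 0.0175). Ska1 lost its call without any 1 of Rosa26 day 4 replicates 2 and 3, Atp6v1a day 4 replicates 4 and 5, Rosa26 day 13 replicates 4 and 5 and Atp6v1a day 13 replicates 1 and 2 (adjusted p from 0.0547 to 0.164). Top2a lost it without any 1 of Rosa26 day 4 replicate 3 and Atp6v1a day 13 replicate 4 (adjusted p from 0.0542 to 0.0754), Ccna2 without Atp6v1a day 13 replicate 2 (adjusted p = 0.0633) and Nusap1 without Atp6v1a day 13 replicate 4 (adjusted p = 0.0738). Nuf2 lost it without any 1 of Rosa26 day 4 replicates 1, 3 and 4, Atp6v1a day 4 replicates 1, 3, 4 and 5, Rosa26 day 13 replicates 1, 2, 4 and 5 and Atp6v1a day 13 replicates 1, 2, 3 and 4 (adjusted p from 0.0502 to 0.123). The other 4 calls were kept.

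For Pik3c3, 10 members had a lower effect at day 13 and none a higher one, where 2.58% and 3.61% of all genes did (6.19% in all). They were Ccne2 (-1.58 ± 0.43, adjusted p = 0.0125), Rrm2 (-1.23 ± 0.22, adjusted p = 3.7e-05), Ccnd1 (-1.19 ± 0.21, adjusted p = 3.4e-05), Pcna (-0.95 ± 0.20, adjusted p = 0.00068) and Kif20a (-0.95 ± 0.30, adjusted p = 0.0446), and Ube2c (-0.82 ± 0.21, adjusted p = 0.00793), Tk1 (-0.80 ± 0.23, adjusted p = 0.0231), Mcm7 (-0.73 ± 0.20, adjusted p = 0.0123), Prc1 (-0.64 ± 0.18, adjusted p = 0.0146) and Rrm1 (-0.61 ± 0.15, adjusted p = 0.00647). Tk1 lost its call without any 1 of Rosa26 day 13 replicate 1 and Pik3c3 day 13 replicate 1 (adjusted p from 0.0645 to 0.0669), Mcm7 without Rosa26 day 13 replicate 5 (adjusted p = 0.0636) and Prc1 without Pik3c3 day 13 replicate 2 (adjusted p = 0.075). Kif20a lost it without any 1 of Rosa26 day 4 replicates 3 and 4, Pik3c3 day 4 replicates 1, 3 and 4, Rosa26 day 13 replicates 2, 3 and 4 and Pik3c3 day 13 replicates 1, 2, 3 and 5 (adjusted p from 0.0513 to 0.103). The other 6 calls were kept.

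For Grn the difference was called for 5 members, 2 higher and 3 lower, where 4.74% and 5.60% of all genes were. The members' shares are thus near those of all genes in both directions. The higher ones were Cdt1 (0.83 ± 0.22, adjusted p = 0.00671) and Tk1 (0.59 ± 0.20, adjusted p = 0.0407), and the lower ones Kif20a (-0.98 ± 0.29, adjusted p = 0.0216), Ccnd1 (-0.63 ± 0.20, adjusted p = 0.0334) and Cenpf (-0.60 ± 0.18, adjusted p = 0.023). Cdt1 kept its call without any 1 library. Tk1 lost its call without any 1 of Rosa26 day 4 replicates 2 and 3, Grn day 4 replicate 5, Rosa26 day 13 replicates 2, 3 and 5 and Grn day 13 replicates 3 and 4 (adjusted p from 0.0503 to 0.2) and Kif20a without any 1 of Rosa26 day 13 replicates 2 and 3 and Grn day 13 replicates 3 and 4 (adjusted p from 0.0531 to 0.0952). Cenpf lost its call without any 1 of Rosa26 day 13 replicate 3 and Grn day 13 replicates 1 and 2 (adjusted p from 0.0515 to 0.0561). Ccnd1 lost it without any 1 of Rosa26 day 4 replicates 4 and 5, Grn day 4 replicates 2 and 3, Rosa26 day 13 replicates 2, 4 and 5 and Grn day 13 replicates 1 and 3 (adjusted p from 0.051 to 0.195), and its value was -0.40 without Grn day 4 replicate 3. The count was 2 or 3 without Rosa26 day 13 replicate 2, 3 or 5 or Grn day 13 replicate 1 or 3.

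For Trem2, 2 members had a higher effect at day 13 and 4 a lower one, where 4.00% and 3.96% of all genes did. The higher ones were Cdc20 (1.29 ± 0.28, adjusted p = 0.00163) and Kif23 (0.68 ± 0.21, adjusted p = 0.0319), and the lower ones Ccne2 (-1.42 ± 0.45, adjusted p = 0.0367), Ccnd1 (-1.31 ± 0.21, adjusted p = 1.6e-05), Hells (-1.15 ± 0.38, adjusted p = 0.0466) and Rrm2 (-0.72 ± 0.21, adjusted p = 0.0221). Cdc20 and Ccnd1 kept their calls without any 1 library. Rrm2 lost its call without any 1 of Trem2 day 13 replicates 2 and 3 (adjusted p from 0.0549 to 0.0565) and Kif23 without any 1 of Rosa26 day 4 replicate 3, Trem2 day 4 replicates 1 and 5, Rosa26 day 13 replicates 2 and 5 and Trem2 day 13 replicates 1 and 3 (adjusted p from 0.0507 to 0.143). Ccne2 did so without any 1 of Rosa26 day 4 replicates 2 and 4, Trem2 day 4 replicate 1, Rosa26 day 13 replicates 1, 3 and 4 and Trem2 day 13 replicates 1 and 2 (adjusted p from 0.0502 to 0.178) and Hells without any 1 of Rosa26 day 4 replicates 2, 4 and 5, Trem2 day 4 replicates 1, 2, 4 and 5, Rosa26 day 13 replicates 2, 3, 4 and 5 and Trem2 day 13 replicates 1, 2, 3 and 4 (adjusted p from 0.0516 to 0.0988). The count was 3 without Trem2 day 4 replicate 1 or Trem2 day 13 replicate 1, 2 or 3. For Npc1 and Ctsd edgeR called no member, where 0.200% and 0.00833% of all genes were called in either direction (for Npc1, 0.0833% higher and 0.117% lower); 4 and 5 members had an unadjusted p under 0.05, and DESeq2 called 0 in each.

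**Figure D5:**
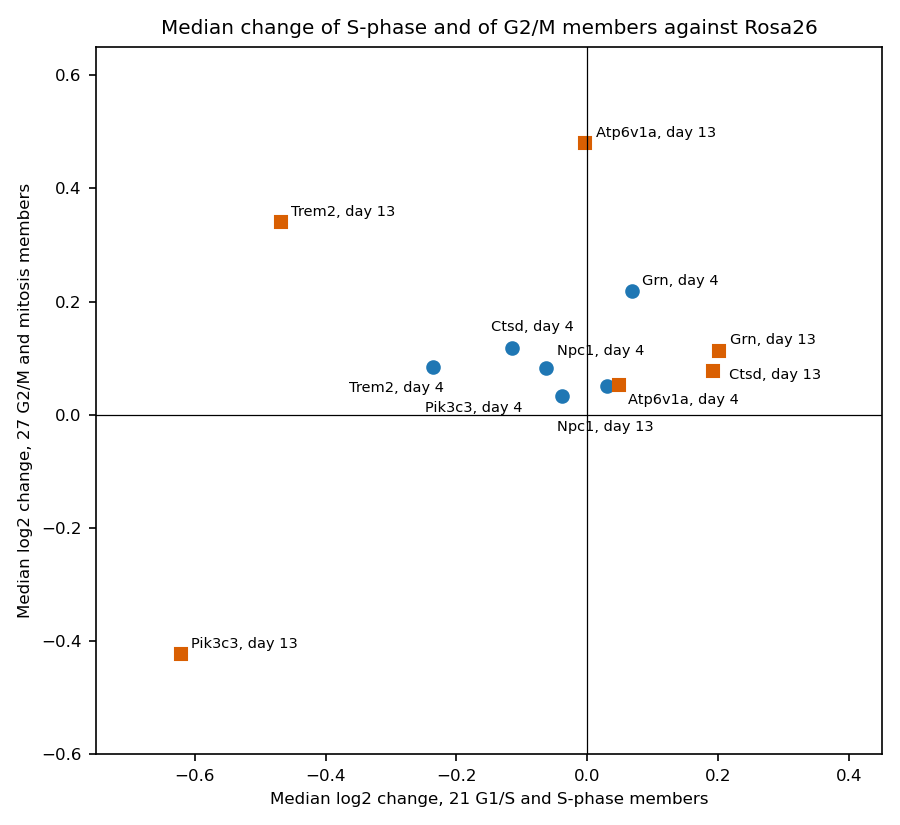
Median log2 change against Rosa26 of the 21 G1/S and S-phase members (x axis) and of the 27 G2/M members (y axis) in the 12 comparisons, with circles for day 4 and squares for day 13. Pik3c3 at day 13 lies low on both axes, Trem2 at day 13 lies low for S phase and high for G2/M, and Atp6v1a at day 13 lies high for G2/M with an S-phase median near 0.

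A joint test of any difference among the 7 targets called 10 of the 48 members at day 4 and 43 at day 13, where 24.0% and 60.7% of all genes were called. At day 4 the members' share is thus not above that of all genes. The 10 of day 4 were led by Pcna, Mcm6 and Cdt1, with adjusted p-values of 5.1e-08, 7.5e-06 and 5.6e-05 from edgeR's quasi-likelihood test. Without Rosa26 day 4 replicate 4 the test called 6. At day 13 Ccnd1, Pcna and Cdt1 led, and Cdc6, Aurka, Kif14, Kif18b and Cenpe were not called.

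Beside these genes, Cdkn1c (the CDK inhibitor p57) stood at 11.2, 13.8, 21.7, 20.5 and 9.15 CPM in Rosa26 cells of day 13, at 304, 354, 322, 492 and 495 CPM in Atp6v1a cells and at 212, 383, 315, 304 and 243 CPM in Pik3c3 cells, with changes of 4.90 ± 0.20 (adjusted p = 2.9e-31) and 4.68 ± 0.20 (adjusted p = 2.2e-29). It also rose in Grn cells (3.32 ± 0.19, adjusted p = 1.2e-22) and fell in Trem2 cells (-1.48 ± 0.31, adjusted p = 0.00019). Every Atp6v1a and Pik3c3 library lay above all of Rosa26. Trem2 cells had less of it than Rosa26 cells. In Ctsd cells of day 13, where no member was called, its mean was 7.15 CPM, against 15.3 CPM in Rosa26. At day 4 its means were 5.34 CPM in Trem2 and 6.96 CPM in Ctsd cells, against 14.9 CPM in Rosa26. Cdkn1b, another CDK inhibitor, stood at 74.7, 79.7, 78.6, 97.4 and 111 CPM in Trem2 cells of day 13. In Rosa26 it stood at 49.6, 45, 48.7, 42.8 and 70.6 CPM, the last in the Low-input library. All Trem2 libraries of day 13 are Low-input, and these levels keep the protocol difference. In Ctsd cells of day 13 Cdkn1b stood at 65.6, 66.4 and 71.3 CPM in Low-input libraries and at 46.4 and 46.8 CPM in Regular ones. Any link to the members was not tested. Of 7 CDK inhibitor genes, 2 rose and 2 fell in Rosa26 cells between the days, and at day 13 the counts were 1 and 2 in Atp6v1a cells, 1 and 1 in Pik3c3 and in Trem2 cells, 3 and 0 in Grn cells, and 0 and 0 in Npc1 cells.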

How the data were processed

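Expected counts of 3' tag reads were deposited for 69 libraries; per the labels' protocols they are QuantSeq libraries with molecular identifiers, read as 75 bp single ends. Counting used Salmon and GRCm39, per the submitters' processing notes; the version, the annotation and the strand setting are not given in the sources used here, so reads of overlapping antisense genes may not be separated. Of the deposited counts above 0, 31.2% were not whole, and all were rounded. The authors' deposited log2 CPM served as a check alone (median difference from the CPM computed here 0.0411 on the log2 scale). The authors' deposited gene table paired IDs with symbols, which is a table of names with no unit.

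CPM are rounded counts over the total of each library. A single fit over all 69 libraries used edgeR 4.0.16 (R 4.3.3, limma 3.58.1): TMM scaling, a low-count filter by group, 1 mean per target and day, a protocol term (Regular or Low-input), and quasi-likelihood tests with Benjamini-Hochberg adjustment over 12008 genes. The threshold for a call was an adjusted p of 0.05; "rose" and "fell" are used for called genes, log2 changes carry their SE, and CPM groups carry SD. Taking 1 mean per group in 1 fit lets all groups share the estimate of the spread. The fitting code was tested on simulated data. The alternatives were DESeq2 1.42.0, RLE scaling, no filter, no protocol term, a replicate block, 1 protocol at a time, a brain marker covariate, Rosa26 without the libraries highest in stromal markers, and each library left out. Library totals set the precision: low members such as Kif18b rest on few counts.

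The members, the related gene lists and the tests were chosen with earlier results of these data known. Named are 9 members: Mki67, Top2a, Cdk1, Ccnb1, Mcm5, Rrm2, Ccnd1, Ccne1 and E2f1. Their levels are summarized over all 14 groups, but their changes are not given in every comparison. Also named are up to 3 called members per role group by size of change. Up to 3 called genes of each related list are named by p. Other called members are named to complete a count. Some related genes that this rule names are not reported here. No pair of same-numbered groups had every correlation over 0.1, so the replicate numbers are not treated as pairs. No same-group pair of libraries agreed within sampling noise.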

Additional observations from a re-analysis of the deposited data

Results flagged for a closer look

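In 140 sets of values (each of 9 genes, or the members' summed level, in 1 group), 10 had a library whose distance from its neighbour passed Dixon's 95% limit; chance gives about 1 in 20. In Trem2 cells of day 4, replicate 1, the Low-input library, stood apart in 4 genes: Top2a was 371 CPM (others 516 to 564), Cdk1 244 CPM (129 to 161), Rrm2 93.4 CPM (48.1 to 57.7) and Ccne1 14.1 CPM (5.16 to 7.26). Rrm2 in Rosa26 cells of day 13 was 27.2 CPM in replicate 5, also Low-input (13.8 to 16.4). Ccnd1 in Pik3c3 cells of day 13 was 568 CPM in replicate 2, the Regular library (240.1 to 283). Regular libraries made up the rest: Mki67 was 89.5 CPM in Pik3c3 day 4 replicate 5 (124 to 136) and 31.5 CPM in Npc1 day 13 replicate 4 (14.9 to 19.4), Ccnb1 was 61.9 CPM in Rosa26 day 4 replicate 1 (82.0 to 86.7), and Rrm2 was 75.5 CPM in Pik3c3 day 4 replicate 2 (55.1 to 59.2).

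The effect of an edit differed between day 13 and day 4 by the interaction test of edgeR for 30 values, given here as the log2 change at day 13 minus that at day 4, with SE and adjusted p in the report. For Atp6v1a it was higher for Ccna2 0.60, Nusap1 0.65, Ska1 1.05, Nuf2 0.67, Birc5 0.65, Cdc20 1.08 and Top2a 0.47, and lower for Pcna -0.91 and Ccnd1 -1.28. For Pik3c3 it was lower for Mcm7 -0.73, Rrm1 -0.61, Rrm2 -1.23, Tk1 -0.80, Pcna -0.95, Ccne2 -1.58, Ccnd1 -1.19, Kif20a -0.95, Prc1 -0.64 and Ube2c -0.82. For Grn it was higher for Cdt1 0.83 and Tk1 0.59 and lower for Ccnd1 -0.63, Kif20a -0.98 and Cenpf -0.60. For Trem2 it was higher for Kif23 0.68 and Cdc20 1.29 and lower for Rrm2 -0.72, Ccne2 -1.42, Ccnd1 -1.31 and Hells -1.15. Of the 30, 13 stayed called whichever single library was left out. Among all tested genes, the same test called 11.4% for Atp6v1a, 6.19% for Pik3c3, 10.3% for Grn and 7.95% for Trem2. For Grn the members' share is near that of all genes.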

How the results depend on the processing

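Counts of called members are compared here with those of the report. The share of all genes called under each alternative is not given here. A changed count of members therefore cannot be told from a change in calls over all genes. Among the 5 comparisons of day 13 with called members and the Rosa26 days, direction was kept under every alternative by all called members except Tpx2, Nusap1 and Cenpf. The count in Rosa26 cells between the days was 47 under each alternative. Ctsd at day 4 (0 in the report) gave 1 by DESeq2, with the replicate block, with Regular libraries and with the brain covariate. Grn at day 4 (6) gave 1 with no filter on low counts, 0 with no protocol term and 10 with the block. Atp6v1a at day 13 (17) gave 2 with Low-input libraries and 11 without the Rosa26 libraries highest in stromal markers. Npc1 at day 13 (1) gave 2 with no filter and 2 with no protocol term, and 0 within either protocol and 0 without those Rosa26 libraries. Pik3c3 at day 13 (14) gave 26 with no protocol term, 5 with Regular and 4 with Low-input libraries. Grn at day 13 (5) gave 2 with Low-input libraries and 3 without those Rosa26 libraries, and Trem2 at day 13 (18) gave 7 and 10. For the difference between days, Atp6v1a (9) gave 5 with no protocol term, Npc1 (0) gave 1 with the block, and Pik3c3 (10) gave 2 with Regular libraries. The same for Grn (5) gave 2 with no filter, 2 with no protocol term, 3 without those Rosa26 libraries and 3 with the brain covariate. The joint test of day 4 (10) gave 4 with no protocol term and 16 with the block. Subsets hold fewer libraries; otherwise the cause was not tested.

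Only values called in the report or under the alternative were checked for a turn of direction. Of these, Tpx2 turned in Atp6v1a cells of day 13 with Low-input libraries (-0.077). With no protocol term, Nusap1 (-0.63), Cenpf (-0.39) and Top2a (-0.37) turned in Trem2 cells of day 13. Over 1 library left out at a time, counts ran from 3 to 10 for Grn at day 4, 7 to 11 for Trem2 at day 4, 12 to 18 for Atp6v1a, 0 to 1 for Npc1, 12 to 18 for Pik3c3, 4 to 7 for Grn and 13 to 18 for Trem2 at day 13. For the difference between days they ran from 6 to 10 (Atp6v1a), 8 to 10 (Pik3c3), 2 to 7 (Grn) and 3 to 6 (Trem2), and for the joint tests from 6 to 11 at day 4 and 40 to 44 at day 13. Of single-gene values under 1 library left out, 3389 kept their side of the threshold, 188 lost a call and 15 gained one. The direction of values not called in either fit was not compared here.

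The replicate block lost no call of the comparisons with Rosa26. Deviations of same-numbered libraries correlated from -0.10 (Pik3c3, day 4) to 0.40 (Atp6v1a, day 13). In no comparison did every library correlate best with its own number, so the numbers are not shown to pair the samples. For Atp6v1a at both days and Trem2 at day 13, 4 of 5 libraries did, against 1 of 5 for Pik3c3 at day 13. What the numbers share was not tested. Counts under 10 per library, as for Kif18b at day 13, limit what could be detected there.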
